A study of Mus musculus with 23 samples.

Results

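Ly6a, Ly6c1, Ly6d and Ly6e are 4 of the 17973 genes read on 23 Illumina mouse bead arrays, and they were chosen by symbol: every probe annotated to one of the 4 symbols was taken, which gave 5 of 25697 probes (2 for Ly6d, 1 for each of the others). Ly6a encodes Sca-1, the antigen that gives LKS cells (lineage-negative, c-kit-positive, Sca-1-positive cells, the blood fraction that holds stem and early progenitor cells) the last letter of their name. The study asked how far LKS cells grown from mouse embryonic stem cells (ESCs) resembled LKS cells from the animal. LKS cells were sorted after 7 days of differentiation from Static flasks (3 arrays), stirred Spinner flasks (3 arrays) and rotating Synthecon vessels (8 arrays), from bone marrow (BM) of 10 week old mice (3 arrays) and from fetal liver (FL) of E15 embryos (3 arrays), and undifferentiated ESCs at day 0 (undiff, 3 arrays) completed the set. Every group carried the strain label 129X1/SvJ x 129S1. The ESCs were the R1 line, expanded on inactivated embryonic fibroblasts as feeders, so all 3 cultures and undiff descend from a single line. Sca-1 protein was itself a sort criterion for the 5 LKS groups, while no such sort was described for undiff. BM and FL cells were also depleted with lineage antibodies that include Gr-1, an antibody against Ly-6G and Ly-6C, and the cultured cells were not.

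Ly6 proteins are small cell-surface proteins with a three-finger fold, and most are held in the membrane by a glycosylphosphatidylinositol (GPI) anchor added in the endoplasmic reticulum. Sca-1 marks mouse blood stem cells and is also made by fibroblasts, endothelium and activated lymphocytes. Ly6C marks monocytes and granulocyte precursors as well as some lymphocytes and endothelium, Ly6D marks early B-lineage commitment among lymphoid progenitors and also epithelial cells, and Ly6E (Sca-2, also called TSA-1) is widespread, with high levels on immature thymocytes. Transcription of Ly6a, Ly6c1 and Ly6e is raised by interferons. In the GRCm38.p6 annotation the 4 genes lie in 1 cluster, in the order Ly6d, Ly6e, Ly6a, Ly6c1, and the stretch that they bound holds 12 protein-coding genes. Of the 8 that are not members, 6 had a probe, and 5 of these 6 were not above background on any array.

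Values below are the deposited quantile-normalized log2 signals, and a probe counts as above background on an array where its detection p is under 0.01. The 8 Synthecon arrays were counted as 2 samples, the odd-numbered and the even-numbered replicates, because arrays of each kind on 1 slide were nearly identical. Their mean and SD therefore rest on 2 set means, and 17 samples enter each test. Between 9785 and 11204 probes were above background on an array. Cultured LKS cells differed from native ones well beyond the Ly6 genes. Summed linear signal of 10 pan-blood genes was 3314 to 23527 in Static, 2920 to 3427 in Spinner and 3970 to 7375 in Synthecon arrays, against 43891 to 64876 in BM and 42506 to 57728 in FL arrays. Ptprc, which encodes the blood antigen CD45, was not above background on any array of the 3 cultures. Other pan-blood genes were: 8 of the 10 were above background on Static replicates 2 and 3, against 3 on Static replicate 1. Summed signal of 10 pluripotency genes was 9475 to 70176 in Static, 70183 to 79790 in Spinner and 79171 to 89384 in Synthecon, against 652 to 661 in BM, 681 to 773 in FL and 56733 to 64404 in undiff. Static replicate 1 stood apart from the other Static arrays. In Static replicates 1 to 3 the pluripotency sums were 70176, 12099 and 9475, and the pan-blood sums were 3314, 23527 and 21671. In such bulk samples, fewer cells of a type and less RNA per cell cannot be told apart.

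**Figure D1:**
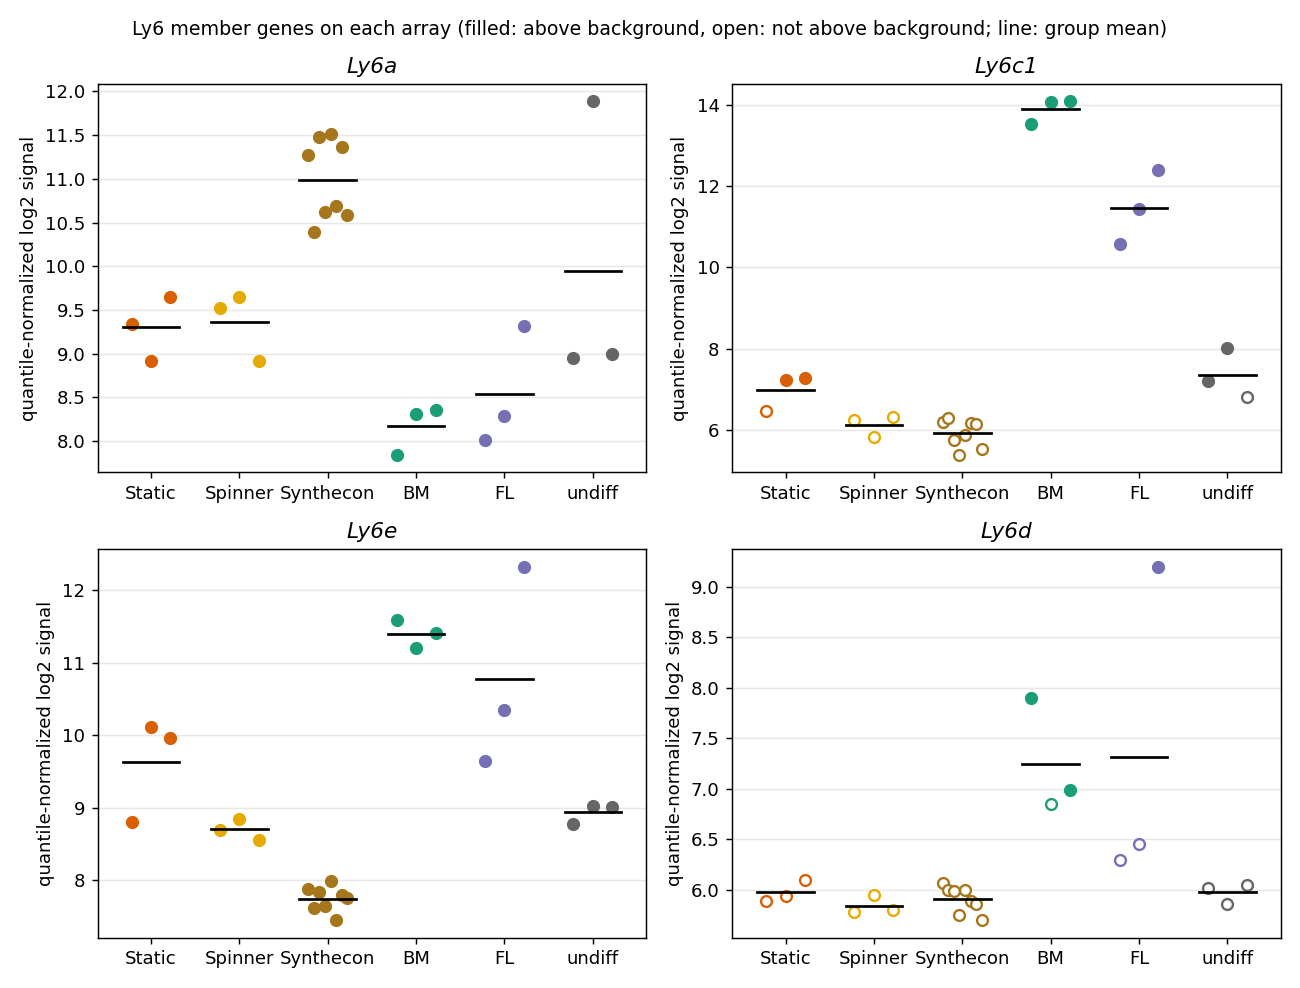
Quantile-normalized log2 signal (vertical axis, 1 panel per gene, the brighter Ly6d probe) on each array of the 6 groups (horizontal axis). Filled points are above background, open points are not, and the line is the group mean over samples. Ly6a was high in Synthecon and on undiff replicate 2, whereas Ly6c1 and Ly6e were highest in BM and FL.

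The 4 genes split into opposite patterns. Ly6a was higher in Synthecon than in native LKS cells, with 10.99 ± 0.59 in Synthecon (SD, n = 2) against 8.17 ± 0.28 in BM (SD, n = 3). Ly6c1 and Ly6e ran the other way, and Ly6d was above background only on arrays of native cells. A moderated F test over the 6 groups (limma, adjusted over all probes) called 3 of the 5 probes, where 43.5% of all probes were called. Its adjusted p was 1.4e-09 for Ly6c1, 0.00022 for Ly6e and 0.021 for Ly6a, and 0.054 and 0.23 for the Ly6d probes.

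Ly6a, the Sca-1 gene, was above background on all 23 arrays. It read 9.34, 8.91 and 9.65 in Static replicates 1 to 3 and 9.52, 9.65 and 8.92 in Spinner replicates 1 to 3. The Synthecon arrays ran between 10.39 and 11.52, with a median of 10.98. Every Synthecon array lay above every Static and Spinner array. Within Synthecon the 2 sets did not overlap: the first spanned 11.27 to 11.52 and the second 10.39 to 10.69. BM replicates 1 to 3 read 7.84, 8.30 and 8.36, and FL replicates 1 to 3 read 8.01, 8.28 and 9.32. All culture arrays exceeded all BM arrays, while FL replicate 3 reached the Static and Spinner range. Undiff replicates 1 to 3 read 8.95, 11.89 and 8.995, so the highest Ly6a value of the series came from an undifferentiated ESC array.

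Against native cells, Ly6a rose in Synthecon LKS cells. The log2 difference was 2.82 ± 0.66 (SE) from BM, or 7.07-fold (limma, adjusted p = 0.0038), and 2.45 ± 0.66 from FL, or 5.47-fold (limma, adjusted p = 0.011). Both calls were lost without the brighter set of arrays, at differences of 2.40 (limma, adjusted p = 0.063) and 2.03 (limma, adjusted p = 0.13). Synthecon is then 1 sample, assumed to vary like the other groups, and the SE of both differences was 0.85. With both sets, the methods' 2-sample test did not call the Synthecon difference from FL (adjusted p = 0.11 after Benjamini-Hochberg). In Static the difference from BM was 1.13 ± 0.59 (limma, adjusted p = 0.20), and in Spinner it was 1.19 ± 0.59 (limma, adjusted p = 0.16). The 95% intervals ran from -0.12 to 2.38 for Static and from -0.06 to 2.45 for Spinner. Against FL the differences were 0.76 in Static and 0.82 in Spinner, with adjusted p of 0.42 and 0.36 (limma). Samples on the same slide gave the same direction: Static minus BM was 1.28 on slide 1, Spinner minus BM was 1.74 on slide 1 and 0.59 on slide 2, and Synthecon minus BM was 2.50 on slide 2.

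In order of their Ly6a means the groups ran from Synthecon (10.99) through undiff (9.94), Spinner (9.36), Static (9.30) and FL (8.54) to BM (8.17), and no neighbours in that order passed the test. Synthecon exceeded Spinner by 1.63 ± 0.66 (limma, adjusted p = 0.21). Static lay below Synthecon, at a difference of -1.69 ± 0.66 (limma, adjusted p = 0.12). The difference of BM from undiff was -1.78 ± 0.59 (limma, adjusted p = 0.033), and that call was lost without any 1 BM replicate (limma, adjusted p = 0.093, 0.066 and 0.063) or undiff replicate 2.

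Much of this error came from 1 array. Undiff replicate 2 stood far above the other undiff arrays and widened the spread that all groups share, and without it the SE of Static minus BM was 0.33. Then the difference from BM passed the test in Static (limma, adjusted p = 0.021) and in Spinner (limma, adjusted p = 0.013), and Synthecon differed from Static (limma, adjusted p = 0.0079) and from Spinner (limma, adjusted p = 0.028). Synthecon then exceeded undiff by 2.02 (limma, adjusted p = 0.0062), while the difference of BM from undiff was -0.80 (limma, adjusted p = 0.14). Feeder fibroblast markers moved with that array: the summed linear signal of 12 such genes was 7458 on undiff replicate 2, against 2255 and 2003 on undiff replicates 1 and 3, and 10 of the 12 were above background there, against 5 and 6. Col1a1, a collagen chain of fibroblasts, read 9.29 on that array and 6.74 and 7.54 on the others. Within Static the sums of the same 12 genes were 2905, 13712 and 4438 in replicates 1 to 3. Replicate 2, with the highest sum of the series, had the lowest Ly6a of the 3. Col3a1, another of the 12, read 12.41 on that array, against 8.39 on undiff replicate 2. Spinner (949 to 1052) and Synthecon (905 to 1241) had 2 to 4 of the 12 genes above background, and sums in the range of BM (1070 to 1425) and FL (831 to 960). Neither the source of these genes in Static nor the part of feeder cells in the Ly6a values was tested.

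**Figure D2:**
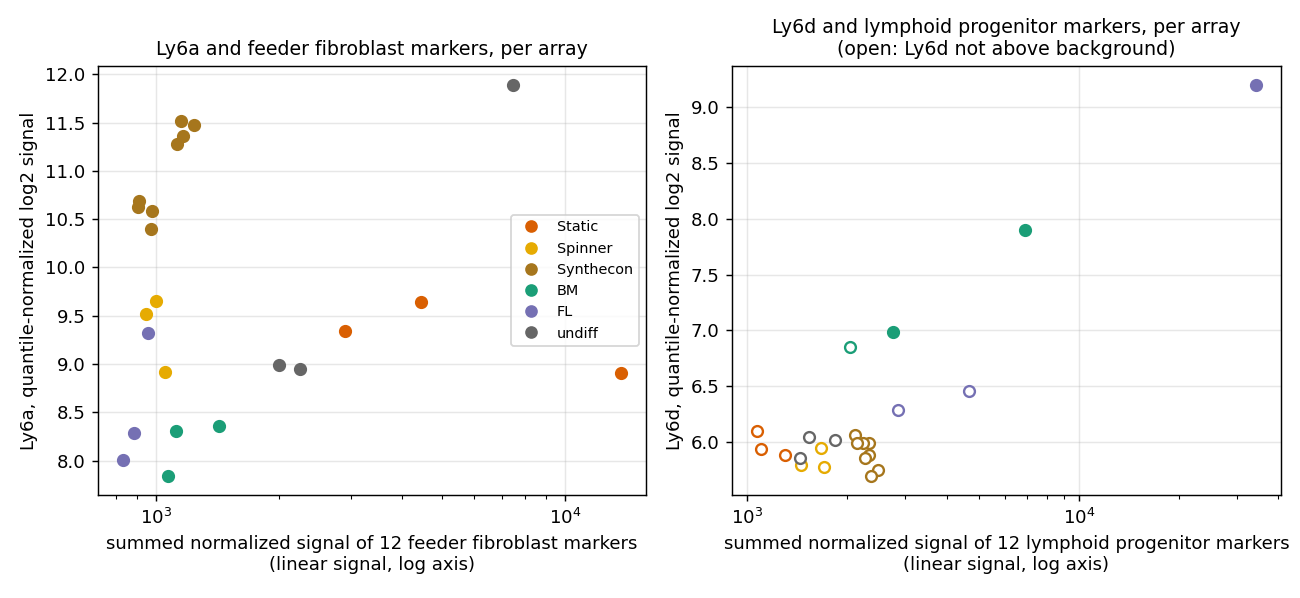
Left, Ly6a log2 signal against the summed linear signal of 12 feeder fibroblast markers on each array (log axis); right, the brighter Ly6d probe against 12 lymphoid progenitor markers (log axis), with open points where Ly6d was not above background. Undiff replicate 2 combines high Ly6a with a marker sum of 7458, Synthecon arrays reach 10.39 to 11.52 at sums of 905 to 1241, and Ly6d was highest on FL replicate 3 and BM replicate 1, which have the highest lymphoid sums.

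Ly6c1, the Ly6C gene, had the widest range of the 4. Its probe may also read the near-identical neighbour Ly6c2, for which no probe was found by symbol, so the signal is uncertain between the copies. The first of 2 RefSeq promoter windows of Ly6c1 is shown because this member differed most between groups. It spans a transcript start, at chr15:75048788-75049087 (GRCm38.p6, minus strand), and the only match to a motif searched is in capitals:
Ly6c1 promoter: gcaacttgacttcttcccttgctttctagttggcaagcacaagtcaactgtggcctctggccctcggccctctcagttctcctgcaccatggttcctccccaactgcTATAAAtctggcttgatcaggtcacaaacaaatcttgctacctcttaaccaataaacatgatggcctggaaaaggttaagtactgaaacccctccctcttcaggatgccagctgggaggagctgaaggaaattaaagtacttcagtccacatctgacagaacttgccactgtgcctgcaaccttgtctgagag
Both strands were searched for TATAAA, TTCNNNGAA (a palindromic core), TTTC repeats parted by NN (bound by interferon regulatory factors), GGGCGG (bound by Sp1) and AGATAA (bound by GATA factors). TATAAA occurred once in this window, beginning 143 bases before the start, and in 13.6% of the 32851 mouse windows of this length. The shares of windows with the other 4, in the order given, were 8.3%, 3.44%, 35.7% and 11.2%. The second window, around another start of the gene at chr15:75048614-75048913, overlaps the first and held no match to the 5 motifs. For Ly6a, Ly6d and Ly6e no window was at hand.

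Ly6c1 read 6.47, 7.24 and 7.27 in Static replicates 1 to 3, of which the last 2 were above background. The Spinner values of 6.23, 5.82 and 6.31 and the Synthecon values of 5.39 to 6.29 (median 6.00) were not above background on any array. BM replicates 1 to 3 read 13.53, 14.06 and 14.09, and FL replicates 1 to 3 read 10.57, 11.43 and 12.41. Undiff replicates 1 to 3 read 7.21, 8.01 and 6.80, the first 2 above background. No culture array came within 3 log2 units of any BM or FL array.

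Ly6c1 fell in all 3 cultures. Relative to BM it was 120-fold lower in Static (log2 difference -6.90 ± 0.39, limma, adjusted p = 4e-09), at least 138-fold lower in Spinner (means of 6.12 and 13.89, limma, adjusted p = 1.3e-09) and at least 144-fold lower in Synthecon (means of 5.92 and 13.89, limma, adjusted p = 4.5e-09). Relative to FL it was 22.3-fold lower in Static (limma, adjusted p = 6.4e-07), at least 25.7-fold lower in Spinner (limma, adjusted p = 1.2e-07) and at least 26.9-fold lower in Synthecon (limma, adjusted p = 3e-07). The methods' 2-sample test did not call Static against FL (adjusted p = 0.053 after Benjamini-Hochberg). A bound is given where no array of the cultures was above background, with each such array raised to its own lowest value above background. Undiff cells, too, lay far below native ones: BM exceeded undiff by 6.55 ± 0.39 and FL exceeded it by 4.13 ± 0.39 (limma, adjusted p = 8e-09 and 1.6e-06). The study counted this gene among those reduced in culture on these same samples, so the falls are not independent of that list.

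BM exceeded FL at Ly6c1 by 2.42 ± 0.39, or 5.36-fold (limma, adjusted p = 0.0038), and BM and FL arrays did not overlap. This was the only one of the 5 probes called between BM and FL, where 1.23% of all probes were called. The call was lost on scaled intensities (limma, adjusted p = 0.069) and with only these 2 groups in the fit (limma, adjusted p = 0.066), at differences of 2.50 and 2.42, and by the methods' 2-sample test (adjusted p = 0.42 after Benjamini-Hochberg). The order below FL, from undiff (7.34) through Static (6.99) and Spinner (6.12) to Synthecon (5.92), held no neighbours that passed the test. Static and Spinner arrays did not overlap, and Static was at least 1.15-fold higher (limma, adjusted p = 0.18). The fitted difference was 0.87 ± 0.39 (95% interval 0.04 to 1.71), but it includes background readings, because no Spinner array was above background. Synthecon fell below undiff by at least 1.54-fold (limma, adjusted p = 0.047), and that call was lost without undiff replicate 2 (difference -1.09, limma, adjusted p = 0.15), without undiff replicate 1, without any 1 Spinner replicate, without Static replicate 2, FL replicate 2 or BM replicate 2 or 3, and without either Synthecon set.

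Markers of monocytes and granulocytes were, like Ly6c1, far higher in BM and FL than in the cultures and undiff. Summed linear signal of 12 of them was 810 to 8068 in Static, 661 to 714 in Spinner and 716 to 903 in Synthecon, against 113889 to 173254 in BM, 92869 to 125329 in FL and 683 to 724 in undiff. Between 10 and 11 of the 12 were above background on BM and FL arrays, against 1 to 6 in Static, 0 in Spinner and 0 to 2 in Synthecon. In undiff they did not follow Ly6c1. On undiff replicates 1 and 2, where Ly6c1 was above background, 0 and 1 of the 12 were. Static replicate 1, where Ly6c1 was not above background, had the lowest of the 3 Static sums (810, against 7050 and 8068). Mpo, the myeloperoxidase of granulocyte precursors, averaged 10.69 in Static, 5.80 in Spinner and 6.24 in Synthecon, against 14.73 in BM and 14.82 in FL. The part of cell composition in the Ly6c1 values was not tested.

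**Figure D3:**
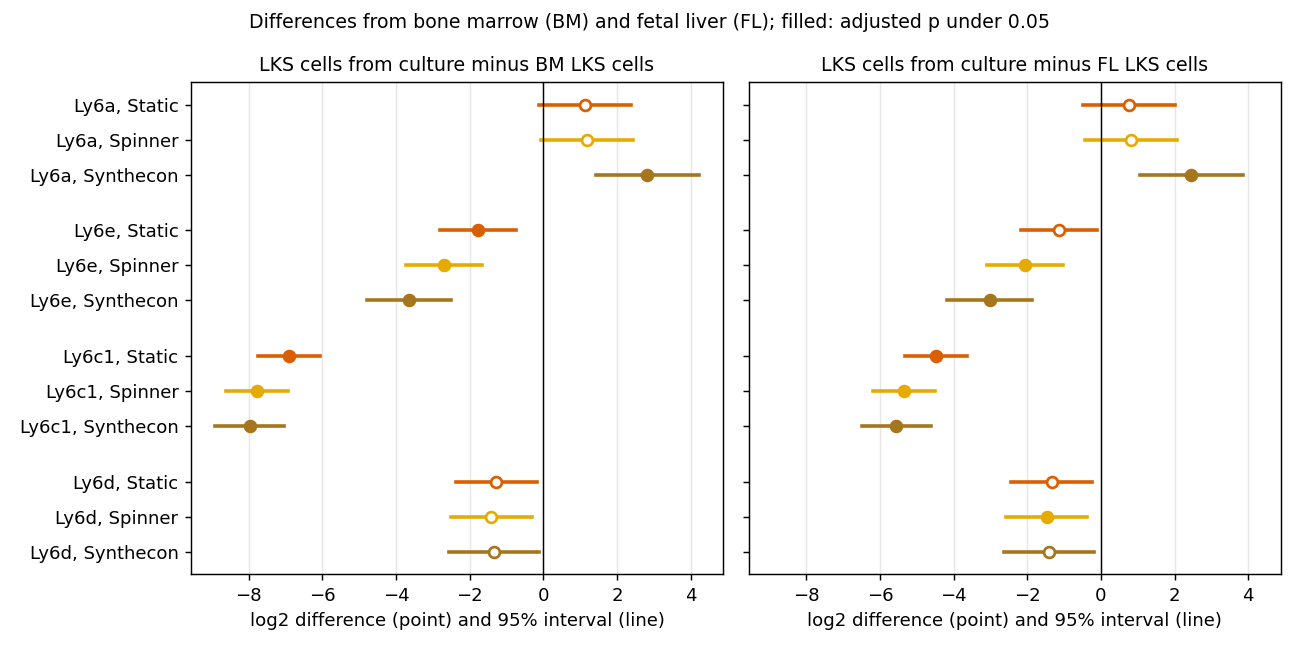
Log2 difference of each culture from BM (left) and FL (right) for the 4 genes (points, filled where the adjusted p is under 0.05), with 95% intervals (lines). Ly6a lies to the right of 0 and passes in Synthecon, at 2.82 and 2.45, while Ly6c1 lies between -7.98 and -4.48. Where cultures were not above background, the point for Ly6c1 or Ly6d is the fitted difference and not a bound.

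Ly6e was above background on all 23 arrays and was lowest in Synthecon. Static replicates 1 to 3 read 8.81, 10.11 and 9.97, and Spinner replicates 1 to 3 read 8.70, 8.85 and 8.56. Synthecon arrays ran between 7.46 and 7.99 (median 7.78), below every other array of the series. BM replicates 1 to 3 read 11.59, 11.20 and 11.42, FL replicates 1 to 3 read 9.64, 10.35 and 12.32, and undiff replicates 1 to 3 read 8.78, 9.02 and 9.01. Static arrays overlapped FL arrays, whereas Spinner and Synthecon arrays did not.

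Ly6e fell in all 3 cultures relative to BM, with log2 differences of -1.77 ± 0.48 in Static, -2.70 ± 0.48 in Spinner and -3.65 ± 0.54 in Synthecon (limma, adjusted p = 0.014, 0.00045 and 8.8e-05). These are 3.41-, 6.49- and 12.6-fold. The Static call was lost without Static replicate 1 (difference -1.36, limma, adjusted p = 0.063) and by the methods' 2-sample test (adjusted p = 0.11 after Benjamini-Hochberg). Relative to FL, Ly6e fell in Spinner (-2.07 ± 0.48) and in Synthecon (-3.02 ± 0.54; limma, adjusted p = 0.0044 and 0.00058), and the Static difference was -1.14 ± 0.48 (limma, adjusted p = 0.11). Without FL replicate 1 the Static difference passed (-1.71, limma, adjusted p = 0.017). FL replicate 3 set much of the distance from FL. Without it the differences were -0.37 in Static, -1.29 in Spinner and -2.25 in Synthecon. With all samples, the methods' 2-sample test called neither Spinner nor Synthecon against FL (adjusted p = 0.17 and 0.19 after Benjamini-Hochberg). Static exceeded Synthecon by 1.88 ± 0.54, or 3.68-fold, which the methods' 2-sample test did not call (adjusted p = 0.36 after Benjamini-Hochberg) and limma did (adjusted p = 0.034). That call was lost without Static replicate 2 (1.64, limma, adjusted p = 0.13), without Static replicate 3 (1.71, limma, adjusted p = 0.085) and without either Synthecon set (limma, adjusted p = 0.15 and 0.21).

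Group means of Ly6e ran from BM (11.40) through FL (10.77), Static (9.63), undiff (8.94) and Spinner (8.70) to Synthecon (7.75), and no neighbours passed the test over all 6 groups. Synthecon and Spinner arrays did not overlap, at a difference of -0.95 ± 0.54 (limma, adjusted p = 0.40), and with only these 2 groups in the fit the difference passed (limma, adjusted p = 0.0021). BM exceeded undiff by 2.46 ± 0.48 (limma, adjusted p = 0.001), and FL exceeded it by 1.83 ± 0.48 (limma, adjusted p = 0.01). The FL difference in Ly6e was 1.06 without FL replicate 3. It was not called with only FL and undiff in the fit (limma, adjusted p = 0.063) or by the methods' 2-sample test (adjusted p = 0.23 after Benjamini-Hochberg). Synthecon differed from undiff by -1.19 ± 0.54 (limma, adjusted p = 0.18), with an interval from -2.34 to -0.04, and its arrays all lay below the undiff arrays. Without FL replicate 3 that difference passed (limma, adjusted p = 0.026).

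Ly6d was above background in native cells only. By the brighter of its probes, all culture and undiff arrays lay between 5.70 and 6.10 and none was above background. That probe read 7.90, 6.85 and 6.99 in BM replicates 1 to 3, of which the first and the last were above background, and 6.29, 6.45 and 9.20 in FL replicates 1 to 3, of which the last was. The dimmer probe was above background on BM replicate 1 (7.20) and FL replicate 3 (8.24) and on no other array. Lower bounds for the fall of the brighter probe relative to BM were 1.36-fold in Static, 1.38-fold in Spinner and 1.44-fold in Synthecon (limma, adjusted p = 0.092, 0.053 and 0.098). Relative to FL, Spinner passed at a bound of 1.44-fold (limma, adjusted p = 0.047), and that call turned on FL replicate 3. Without it the difference was -0.53 (limma, adjusted p = 0.1), between background readings, because no remaining FL array and no Spinner array was above background. Static, Spinner and Synthecon then all differed from BM (limma, adjusted p = 0.00019, 5.8e-05 and 0.00026). The Spinner call was also lost in each fit that left out a replicate of another group or a Spinner replicate, apart from BM replicate 1 and FL replicates 1 and 2, at adjusted p of 0.05 to 0.11 (limma). Static and Synthecon passed against FL without FL replicate 1 (limma, adjusted p = 0.023 for both) or FL replicate 2 (limma, adjusted p = 0.038 for both). BM and FL means were 7.25 and 7.31 (limma, adjusted p = 0.99).

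Lymphoid progenitor markers were highest on the same arrays. The summed linear signal of 12 such genes was 1074 to 1302 in Static, 1453 to 1703 in Spinner and 2112 to 2479 in Synthecon. It was 6882, 2044 and 2752 in BM replicates 1 to 3, 2862, 4683 and 34134 in FL replicates 1 to 3, and 1440 to 1837 in undiff. On BM replicate 1 and FL replicate 3, 9 of the 12 were above background, against 5 and 6 on the other BM arrays and 6 on both other FL arrays. The recombinase gene Rag1 averaged 7.27 in BM and 9.21 in FL and was not called between them. Of the 12, 1 was called between BM and FL (1.23% of all probes were): Dntt, which was higher in BM. Whether the Ly6d signal came from such cells was not tested.

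Counts of the 5 member probes called are set beside the share of all probes called in the same comparison. Static differed from BM at 2 probes (Ly6c1 and Ly6e, both lower), where 23.2% of all probes were called, and Spinner at the same 2, where 28.5% were. Synthecon differed from BM at 3 (Ly6a higher, Ly6c1 and Ly6e lower), beside 29.4%. Against FL the counts were 1 in Static, 3 in Spinner and 3 in Synthecon, beside 20.9%, 25.8% and 26.1% of all probes. Between cultures, Static and Spinner differed at 0 of the 5 (10.3% of all probes, and 1 of the 5, Ly6c1, at an unadjusted p under 0.05 by limma), Static and Synthecon at 1 (11.5%), and Synthecon and Spinner at 0 (2.84%, and 1 of the 5, Ly6a, at an unadjusted p under 0.05 by limma). Relative to undiff, Static and Spinner were called at 0 of the 5 (13.2% and 4.54% of all probes), Synthecon at 1 (11.5%), BM at 3 (28.5%) and FL at 2 (25.7%). At an unadjusted p under 0.05 by limma, Static differed from undiff at 0 of the 5 and Spinner at 1, Ly6c1.

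Among other family genes, calls went in both directions. Of 29 further Ly6/uPAR family genes measured, 17 were above background on some array and 8 on every array of at least 1 group. Ly6g6c, Ly6g6d, Ly6g6e, Lypd6 and Psca met that condition only through arrays of cultured cells. That choice favours higher values in culture, so their values are descriptions of single genes and no p-value is given for them. Ly6g6e averaged 9.83 in Spinner and 10.57 in Synthecon, against 5.74 in BM, 5.64 in FL and 7.52 in undiff. It was at least 7.36-fold higher in Spinner and at least 12.3-fold higher in Synthecon than in BM. Ly6g6c was at least 1.22-, 1.28- and 1.36-fold higher in Static, Spinner and Synthecon than in BM. Ly6g6d was at least 1.28-fold higher in Synthecon. Lypd6 was above background on every Static array and on 1 Synthecon array, and no other. It averaged 8.30 in Static and was at least 2.55-fold higher there than in BM. Psca, an antigen first known from prostate epithelium, was at least 1.65-fold higher in Static than in BM (means of 7.67 and 6.63).

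Cd59b and Cd59a encode the CD59 proteins, which block the last step of complement. Cd59b averaged 9.58 in Spinner against 7.91 in BM (limma, adjusted p = 0.0017), whereas Cd59a averaged 9.69 against 8.54 (limma, adjusted p = 0.15). Plaur, the urokinase receptor, averaged 7.02 in Spinner against 8.75 in BM (limma, adjusted p = 0.019). Its BM replicates 1 to 3 were uneven, at 7.27, 10.23 and 8.74. Neither Cd59b nor Plaur was called in Static or in Synthecon against BM. Over the 29 genes, 4, 5 and 6 were higher and 2, 3 and 2 were lower in Static, Spinner and Synthecon than in BM, where 23.2%, 28.5% and 29.4% of all probes were called in either direction. Of those called lower, Ly6k was not above background on any array and Ly6g5b was on only 1, a BM array. Median differences over the 29 were 0.07, 0.08 and 0.07, against -0.03, -0.01 and -0.01 over all probes.

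**Figure D4:**
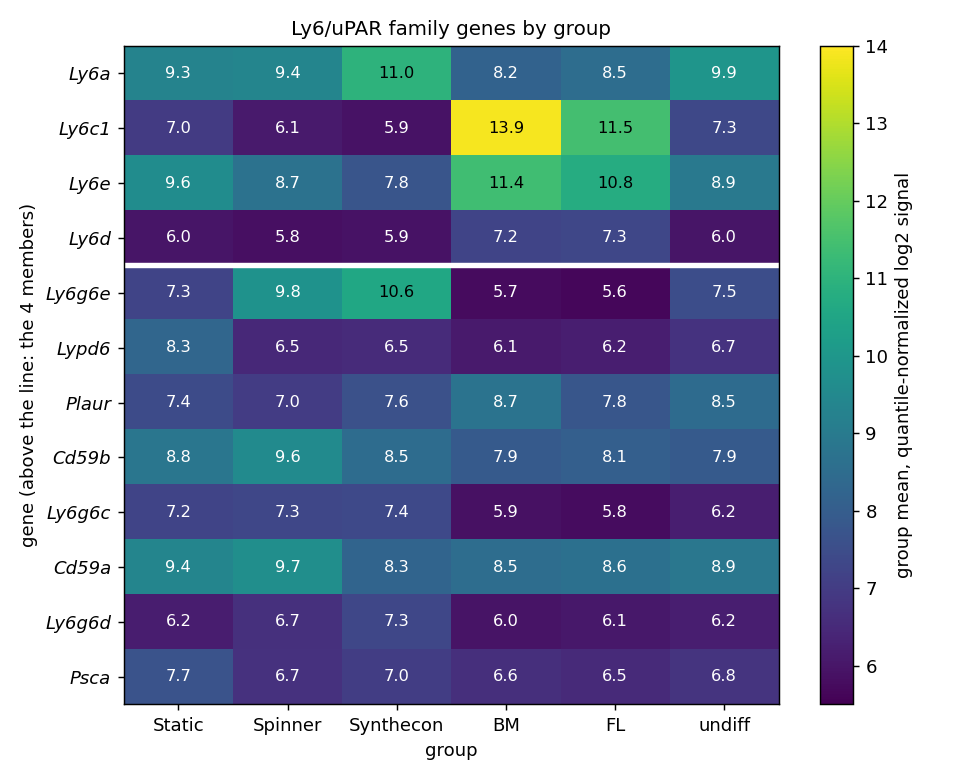
Group means of quantile-normalized log2 signal (colour and number) for the 4 members, above the white line, and the 8 further family genes above background on every array of at least 1 group. Within a row, Ly6g6e is highest in Synthecon (10.6) and Spinner (9.8) and Ly6c1 is highest in BM (13.9); rows come from different probes and are not comparable in level.

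GPI anchor synthesis genes, whose products attach Ly6 proteins to the membrane, moved in both directions. Of 24 measured, 3, 2 and 2 were higher and 5, 8 and 6 lower in Static, Spinner and Synthecon than in BM, beside the same 23.2%, 28.5% and 29.4% of all probes. The median differences were -0.21, -0.20 and -0.05. In Synthecon, Pigl and Pigf, which act at early and late steps of anchor assembly, differed from BM by 2.16 ± 0.24 and 2.06 ± 0.32 (limma, adjusted p = 4.7e-06 and 0.00016). Mppe1, a phosphodiesterase that trims the anchor, differed by -2.004 ± 0.30 (limma, adjusted p = 0.0001).

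Among interferon-responsive genes other than the members, more were called lower than higher in each culture. Of 29 measured, 8, 12 and 10 were lower and 1, 3 and 0 higher in Static, Spinner and Synthecon than in BM, with median differences of -0.40, -0.63 and -0.59. The share of all probes called was again 23.2%, 28.5% and 29.4%. The 3 higher in Spinner were Bst2, Ifitm1 and Ifitm2, and the summed linear signal of the 29 genes was 25811 to 27756 in Spinner, against 18544 to 36931 in BM. In Synthecon, Psmb9 and Psmb8, subunits of the immunoproteasome, differed from BM by -3.47 ± 0.37 and -2.54 ± 0.23 (limma, adjusted p = 3.6e-06 and 8.5e-07), and Gbp3, a guanylate-binding protein gene, by -2.65 ± 0.28 (limma, adjusted p = 4e-06). Array by array, the mean log2 signal of the 29 genes was 7.52, 7.91 and 7.89 in Static replicates 1 to 3. Replicate 1 was also the lowest of the 3 for Ly6e and Ly6c1, and it had the highest pluripotency and lowest pan-blood sums. The mean signal was 7.42 to 7.52 in Spinner, 7.29 to 7.50 in Synthecon, 7.99, 8.56 and 8.43 in BM replicates 1 to 3 and 7.77, 7.84 and 8.69 in FL replicates 1 to 3. FL replicate 3, the highest FL array for all 4 members, was also the highest for this list. Whether interferon signalling set these values was not tested.

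Among the members, patterns over the 17 samples were most alike for Ly6c1 and Ly6e (Pearson r = 0.89), then Ly6d and Ly6e (0.85) and Ly6c1 and Ly6d (0.75). Ly6a ran against them, with r of -0.59 with Ly6c1, -0.59 with Ly6e and -0.36 with Ly6d. Samples of a group share their origin and the values of native and cultured cells form separate clouds, so these are descriptions. The brighter Ly6d probe, used here, was above background on only 3 arrays. Every r with Ly6d therefore rests on those arrays and on background readings. Of 7088 probes above background throughout at least 1 group and spanning at least 1 log2 unit, the genes most like Ly6a were Exoc4 (r = 0.92), Ahnak2 (0.91), Dcxr (0.90), Anxa8 (0.90) and the unnamed locus LOC100046802 (0.90). Exoc4, a subunit of the vesicle-tethering exocyst, averaged 9.84 in Synthecon, against 8.39 in BM and 8.66 in FL. Those most like Ly6c1 were Ifi47 (0.99), Tap2 (0.98), Gdpd3 (0.98), Tspo (0.98) and Alas1 (0.98). Ifi47, an interferon-inducible GTPase gene, averaged 5.95 in Static, 5.63 in Spinner and 5.66 in Synthecon, against 10.03 in BM and 8.64 in FL. Those most like Ly6d were Arpp21 (0.95), Ifi214 (0.95), LOC637082 (0.94), Upb1 (0.94) and Cd163 (0.93). Among those most like Ly6e were Esyt1 (0.96), Eif2ak2 (0.95), Plac8 (0.95) and Elf1 (0.94). Eif2ak2 encodes the double-stranded RNA sensor PKR.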

How the data were processed

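RNA (1 amplification round) was read on Illumina MouseRef-8 v2 bead arrays. The authors summarized beads in BeadStudio, subtracted background, normalized by quantiles and deposited log2 values, which were used as given. Set against the intensity table, they carry an added offset of 60.2 on the linear scale, so differences between dim probes are compressed. Deposited background-subtracted intensity values, not normalized, and deposited detection p-values, computed by the authors' software against negative controls, served for alternatives and for calling probes above background. Summed marker signals are sums of 2 to the power of the log2 values. The authors' own tests were not used.

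Group means were fitted with limma 3.58.1 in R 4.3.3 (eBayes with trend) over 17 samples. Synthecon arrays were averaged within 2 sets found by clustering all probes after centring on slide; without centring the clusters were the slides. Array pairs of a set on 1 slide differed by a median of 0.06 to 0.07 log2 units over 2703 bright probes, against 0.16 to 0.28 across sets and 0.20 to 0.22 within a set across slides. Pairs within the other groups differed by 0.09 to 0.44. The lowest of these was Spinner replicates 1 and 2 on slide 1, which were still counted as 2 samples. Averaging them cut the probes called from 2649 to 973 for Static against Spinner and from 731 to 288 for Synthecon against Spinner. Nothing says whether arrays of a set share a culture, and p-values measure only the spread between these samples. P-values were adjusted (Benjamini-Hochberg) over 25697 probes within each of 15 comparisons, with 0.05 as the limit for a call. The number of arrays limits the precision.

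The members and lists were chosen with earlier results of these data known. Named are all member probes; family genes above background on every array of at least 1 group (up to 8, by range of group means); up to 3 genes of other lists by size of difference, with markers that bear on a stated value; and the 5 genes most correlated with each member, of which 1 for Ly6e is not reported here. Col1a1, Col3a1, Ptprc, Mpo, Rag1, Dntt, Ly6k, Ly6g5b, Bst2, Ifitm1 and Ifitm2 were named after their values were seen. Current gene symbols were matched by transcript accession for 24202 probes, and 4337 symbols changed. The fit was tested on simulated data. Alternatives changed sample units, normalization, filter, variance prior, samples in the fit, slide and replicate terms, left out each sample in turn, or used the methods' 2-sample test. That test left out the selection by one-way analysis of variance that came first in the methods. Leaving out undiff replicate 2 with FL replicate 3, and Synthecon sets by slide, were added after the data were seen.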

Additional observations from a re-analysis of the deposited data

How the results depend on the processing

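No called difference of a member changed sign under any alternative, or within a slide where both groups were on it. All FL arrays were on slide 2 and all undiff arrays on slide 1. Static against FL, Synthecon against undiff and FL against undiff therefore had no within-slide value. Counts below are of the 5 member probes called. Fits that left out 1 sample gave 1 to 3, 2 to 4 and 2 to 4 for Static, Spinner and Synthecon against BM, 1 to 4, 2 to 4 and 2 to 5 against FL, 0 to 2 for Static against Synthecon, 0 to 1 for Synthecon against Spinner, 1 to 2 for BM against FL, 0 to 1, 0 to 2, 2 to 5 and 2 to 4 for Spinner, Synthecon, BM and FL against undiff, and 2 to 5 in the test over 6 groups.

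Only the larger shifts in count are listed for the other alternatives. With all 23 arrays as samples, counts became 3 for Static against FL, 5 for Synthecon against FL and 3 for Static against Synthecon. They became 1 for Synthecon against Spinner, and 1, 2 and 4 for Spinner, Synthecon and FL against undiff. That setting counts near repeats as independent, and it gave 38 calls over the 15 comparisons, against 22 in the fit over 17 samples. Averaging Spinner replicates 1 and 2, or Synthecon sets by slide, gave 0 for Synthecon against undiff. Scaled intensities gave 0 for BM against FL and 1 for Spinner against undiff, and normexp background gave 1 for Spinner against undiff. With only the 2 groups fitted, the counts were 4 and 4 for Static and Spinner against BM, 0 for Static against Synthecon, 2 for Synthecon against Spinner, 0 for BM against FL, and 1, 2 and 1 for Spinner, Synthecon and FL against undiff; listed genes called were 45 for Static against BM and 32 for Static against FL. The methods' 2-sample test gave 1 for Static against BM, 0, 1 and 1 for Static, Spinner and Synthecon against FL, 0 for Static against Synthecon, 0 for BM against FL, and 0 and 1 for Synthecon and FL against undiff, with 23, 13 and 36 listed genes for Static against BM, Static against FL and Synthecon against FL. Slide as a term gave 2 for Static against Synthecon and 1 for Spinner against undiff, and 29 calls over the 15 comparisons, against 22 without it. It added the brighter Ly6d probe in Static and Spinner against BM (limma, adjusted p = 0.047 and 0.017). The same probe was added in Synthecon against FL and BM against undiff (limma, adjusted p = 0.039 and 0.045). Without undiff replicate 2 and FL replicate 3 together, an alternative chosen after seeing the data, the counts were 4 and 5 for Static and Spinner against BM, 2 for Static against FL, 3 for Static against Synthecon, 1 for Synthecon against Spinner and 2 for BM against FL. Causes of these shifts were not tested.

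Equal replicate numbers were not taken as pairs: deviations correlated between -0.42 and 0.40 over 45 same-numbered pairs of arrays (median 0.06, 21 over 0.1), against a median of -0.03 over 90 other pairs (15 over 0.1). A fit with a replicate block, which also took Synthecon replicates 1 to 3 as 3 samples, gave 23 calls over the 15 comparisons, against 22 in the fit with neither change, and added Ly6d in Spinner against BM (adjusted p = 0.043, limma). The Ly6d probes were dropped by the filter on dim probes. A bound replaces any fold at background, while log2 differences given there are fitted values and not bounds.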
